A study of Mus musculus with 24 samples.

Results

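The 9 genes of the membrane adenylyl cyclases, Adcy1 to Adcy9, were examined in hippocampal RNA of control littermates and of mice in which CBP, the product of Crebbp, was ablated in forebrain excitatory neurons. The members are the rows of the deposited count table whose Ensembl identifiers belong to these genes, 9 of 55471 genes in all, and all 9 passed the filter on low counts. The 12 C57BL/6 mice were 3 to 6 months old and formed 4 groups of 3, which were control mice in a Standard Cage (SC), CBP-ifKOs in SC, control mice in Environmental Enrichment (EE) and CBP-ifKOs in EE. CBP-ifKOs are labelled Crebbp_flox;Camk2a_creERT2, and the controls are littermates without the Cre transgene. All mice, controls included, received 5 intragastric doses of tamoxifen, which activates creERT2, a protein that only CBP-ifKOs carry. CBP-ifKOs make a truncated CBP without acetyltransferase activity. EE was a large box with wheels, tubing and toys, in which mice lived for 1 month. Each library came from the hippocampus of 1 mouse, and the methods of the study give these SC mice as female and the behavioural work with EE as done in females.

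Adenylyl cyclases convert ATP to cAMP, the messenger that activates protein kinase A, the exchange factors of the Epac family and HCN channels. Stimulatory G proteins activate the membrane enzymes and inhibitory G proteins restrain several of them, whereas the enzymes differ in how they respond to calcium and to free G protein beta gamma subunits. Adcy1 and Adcy8 encode the enzymes that calcium and calmodulin stimulate in neurons and that are known for their part in hippocampal long-term potentiation and memory. Protein kinase A phosphorylates the transcription factor CREB, and CBP is the coactivator and acetyltransferase that phosphorylated CREB recruits.

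The libraries held 26874015 to 27971488 counts in control mice and 28582210 to 37448388 in CBP-ifKOs, where a floor of 3 counts corresponds to 0.0801 to 0.112 CPM, the count scaled to the size of its library. The floor covers counting error only. All 148570 nonzero counts of CBP-ifKO mice were even, whereas 86334 of 158233 were odd in control mice, and the results are given for the counts as deposited. Whether reads of the CBP-ifKO libraries were counted 2 times was not tested, and if so their counts and totals overstate the reads behind them and a floor of 3 counts is too low there. Halving the counts of CBP-ifKO mice moved no member across the threshold in the comparisons of genotypes. Crebbp itself was between 69.6 and 81.9 CPM in the 6 control mice and between 44.5 and 51.6 CPM in the 6 CBP-ifKOs. Recombination removes only the floxed exons while the counts cover all exons, the Camk2a driver is active in forebrain excitatory neurons, and other cells keep the gene. Markers of the excitatory neurons, granule cells and pyramidal fields of the hippocampus were detected in every library. Choroid plexus markers summed to 1223 CPM in EE control mouse 1 and to at most 61.0 CPM in the other mice, so the calls of the members were also made without it, as were those of pathway genes and of neighbours of Crebbp.

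The stretches of 250 bases before the RefSeq start are shown for Adcy1 and Adcy5, the members past the threshold between genotypes, and for Adcy9, the neighbour of Crebbp. The CREB site TGACGTCA and its TGACG part, which lies in the full site on either strand, were searched on both strands. Sequences are from RefSeq (GRCm38.p6, the build of the counts), 5′ to 3′ on the strand of the gene, and capitals mark TGACG or its reverse complement CGTCA.
Adcy1, chr11:7063183-7063432, + strand: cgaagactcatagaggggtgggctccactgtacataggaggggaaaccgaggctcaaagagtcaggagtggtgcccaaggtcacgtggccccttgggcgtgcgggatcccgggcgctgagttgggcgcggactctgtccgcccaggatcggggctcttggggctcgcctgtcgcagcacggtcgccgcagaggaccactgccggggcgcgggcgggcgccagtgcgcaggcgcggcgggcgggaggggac
Adcy5, chr16:35154614-35154863, + strand: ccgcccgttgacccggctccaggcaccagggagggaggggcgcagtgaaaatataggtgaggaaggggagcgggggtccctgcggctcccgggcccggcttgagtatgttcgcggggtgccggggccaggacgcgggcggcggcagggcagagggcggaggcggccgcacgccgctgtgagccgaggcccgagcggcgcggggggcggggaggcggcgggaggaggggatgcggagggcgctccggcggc
Adcy9, chr16:4420499-4420748, - strand: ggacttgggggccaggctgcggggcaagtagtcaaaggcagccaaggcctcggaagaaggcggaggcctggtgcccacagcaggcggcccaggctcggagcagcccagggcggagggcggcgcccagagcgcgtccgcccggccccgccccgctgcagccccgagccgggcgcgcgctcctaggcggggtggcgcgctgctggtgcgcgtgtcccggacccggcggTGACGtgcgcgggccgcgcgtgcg
The windows of Adcy1 and Adcy5 hold no TGACG, and that of Adcy9 holds it once, beginning 24 bases before the start. TGACG was found in 2 of the 10 windows of the 7 members in the table, the other being 1 of 3 windows of Adcy7, and in 17.8% of all 32851 windows of this length. TGACGTCA was in none of the 10 and in 1.55% of all windows. G and C made up 71.2% of the Adcy1 window, 78.0% of that of Adcy5 and 78.8% of that of Adcy9, against a median of 52.4% over all windows. RefSeq windows for Adcy6 and Adcy8 were not used here.

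The family is scattered over the genome (GRCm38, GENCODE). Adcy1 lies at chr11:7063489-7178506 on the + strand and Adcy5 at chr16:35154877-35305738 on the + strand, on the same chromosome as Adcy9 and Crebbp. Adcy6 and Adcy8 share chromosome 15, and the other members lie on chromosomes of their own.

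To compare levels between genes, CPM normalised by the trimmed mean of M values (TMM) was divided by the length of each gene in kilobases. Adcy1 had the highest level, 73.1 ± 12.9 CPM per kilobase (mean ± SD, n = 12 mice), and was above every other member in 12 of 12 mice. It made up 44.3% of the summed level of the family, and between 39.9% and 50.8% in single mice. Adcy2, stimulated by beta gamma subunits, followed with 39.0 ± 2.80 CPM per kilobase, so that these 2 genes led the family.

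The middle of the family was held by Adcy5 with 17.3 ± 1.72, Adcy9 with 12.8 ± 2.14, Adcy6 with 9.14 ± 0.713 and Adcy3 with 7.59 ± 0.431 CPM per kilobase. Adcy5 and Adcy6 encode the enzymes that calcium inhibits, Adcy3 is best known from olfactory neurons and neuronal cilia, and Adcy9 is little stimulated by forskolin. The ranges over the 12 mice overlapped between Adcy5 and Adcy9, between Adcy9 and Adcy6 and between Adcy6 and Adcy3, although the first of each pair was higher within 12 of 12 mice. Adcy8 had 3.22 ± 0.285 CPM per kilobase, far below its calmodulin-stimulated relative Adcy1. Adcy7 with 1.28 ± 0.233 and Adcy4 with 0.814 ± 0.201 CPM per kilobase were lowest, and Adcy7 was above Adcy4 in 11 of 12 mice. Among the 18251 genes kept by the filter for the fit to the 12 mice, Adcy1 stood at the 97.7th percentile of level per length and Adcy4 at the 25.8th.

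**Figure D1:**
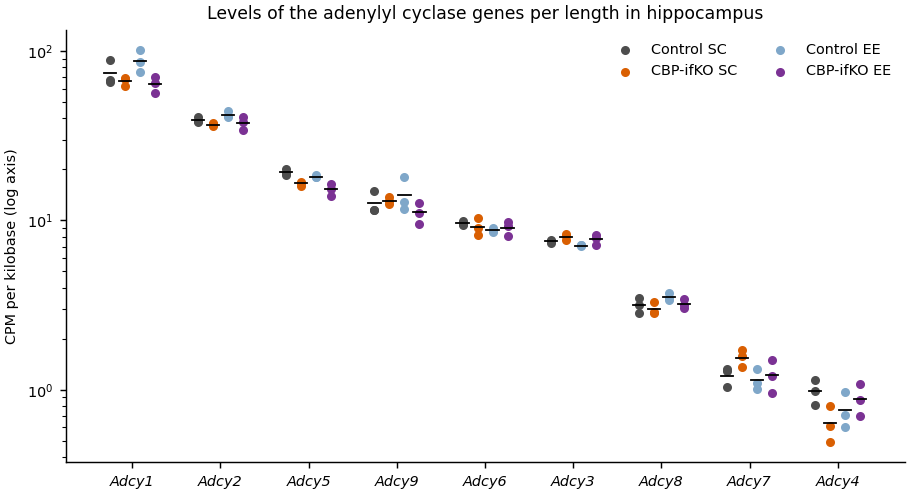
Level of each adenylyl cyclase gene in TMM-normalised CPM per kilobase of gene length, on a log axis, in each of the 12 mice (points, coloured by group; bars are means of 3 mice). Adcy1 lies at 73.1 and Adcy4 at 0.814 CPM per kilobase on average, and the groups lie close together beside the differences between genes.

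The first question was whether loss of CBP changes the transcripts of these enzymes. Adcy5 and Adcy1 were lower in CBP-ifKOs over both housings, and no member passed the test in the other direction. With genotypes compared over both housings, Adcy5 fell by 15.0% (log2 fold change -0.24, SE 0.042) and Adcy1 fell by 19.2% (log2 fold change -0.31, SE 0.081). The adjusted p was 0.0012 for Adcy5 and 0.016 for Adcy1 (edgeR quasi-likelihood test on 12 mice, Benjamini-Hochberg adjustment over all genes). At this threshold 16.9% of all 18251 genes were called, and 10.3% were called lower, and nothing particular to the family is read from 2 of 9 members beside these shares. In bulk tissue, fewer cells of a type and less RNA per cell cannot be told apart.

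Adcy5 was the member whose genotypes were separated in both housings. In SC it was at 133, 144 and 137 CPM in control mice and at 121, 115 and 120 CPM in CBP-ifKOs. In EE it was at 129, 132 and 130 CPM in control mice and at 119, 110 and 101 CPM in CBP-ifKOs. Every CBP-ifKO was below every control mouse of either housing. Such a separation downwards in both housings was shown by 7.23% of all genes, and by 1 of the 9 members.

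In SC the drop of Adcy5 was -0.22 on the log2 scale (SE 0.053, adjusted p = 0.0337, edgeR). It was the only member past the threshold, where 5.52% of 17532 genes were called and 4.02% were lower. Leaving out 1 mouse took the adjusted p of edgeR to 0.115 without control mouse 3, and to 0.0962, 0.157 and 0.104 without CBP-ifKO 1, 2 and 3, with drops between -0.24 and -0.19. In EE the estimate was as large, -0.24 (SE 0.068), but the adjusted p of edgeR was 0.0701. Fitting all 12 mice together gave 0.0178 for the same contrast. Without EE control mouse 1, the drop was -0.25 in EE (adjusted p = 0.124) and -0.24 over both housings (adjusted p = 0.0025, edgeR). In the exact permutation test of mice within housing, Adcy5 gave an unadjusted p = 0.005, the smallest that the 400 assignments allow. Any gene separated in this way in both housings gives that value, so it adds nothing to the separation itself.

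Adcy5 is best known from striatal projection neurons, and markers of these cells were measured beside it. Ppp1r1b, which encodes the signalling protein DARPP-32 of these cells, was lower in CBP-ifKOs over both housings (log2 fold change -0.43), at 25.4 to 40.2 CPM in the 6 control mice and 19.9 to 24.9 CPM in the 6 CBP-ifKOs, and its part in the result for Adcy5 was not tested. Rgs9, Drd2 and Adora2a passed no test, and none was at 0. Rgs9 lay between 11.4 and 17.3 CPM, Drd2 between 2.27 and 3.36 CPM and Adora2a between 0.762 and 1.59 CPM over the 12 mice.

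Adcy1 had its largest distance between genotypes in EE. There it was at 948, 1273 and 1080 CPM in control mice and at 705, 875 and 816 CPM in CBP-ifKOs. In SC it was at 825, 1114 and 846 CPM in control mice and at 866, 857 and 779 CPM in CBP-ifKOs. The genotypes were apart in EE and overlapped in SC, where 1 control mouse stood well above the rest.

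In EE Adcy1 fell by 27.0% (log2 fold change -0.45, SE 0.10, adjusted p = 0.0285, edgeR) and was the only member past the threshold, where 4.57% of 17625 genes were called and 3.53% were lower. In SC its log2 fold change was -0.15 (SE 0.098, adjusted p = 0.408, edgeR), and it was -0.0037 without control mouse 2 and -0.23 without control mouse 1. The difference between these 2 changes was -0.31 (SE 0.16), with an unadjusted p of 0.0775 and an adjusted p of 0.9998 in edgeR, so a dependence on housing was not shown. With 1 mouse left out this difference lay between -0.46 and -0.19. Without EE control mouse 1, whose choroid plexus markers were high, the drop in EE was -0.55 with an adjusted p of 0.0058 in edgeR. The adjusted p of edgeR was 0.0516 and 0.0894 without EE control mouse 2 and 3, and 0.1001, 0.0502 and 0.112 without EE CBP-ifKO 1, 2 and 3.

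Over both housings the call for Adcy1 held with each mouse left out in turn, with log2 fold changes between -0.36 and -0.23 and adjusted p between 0.0059 and 0.046 (edgeR). The exact permutation test within housing gave an unadjusted p = 0.03 for Adcy1. Markers of several cell types also differed by genotype in these libraries. All 3 CA1 markers, Wfs1, Fibcd1 and Mpped1, were lower in CBP-ifKOs over both housings, with a median log2 fold change of -0.51. Their sum was 584.6 to 669.2 CPM in control SC mice, 441.5 to 460.1 in CBP-ifKO SC mice, 591.6 to 663.0 in control EE mice and 406.7 to 437.2 in CBP-ifKO EE mice. None of the 3 was at 0.

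Of the other lists, 2 of 4 markers of excitatory neurons, 2 of 4 of dentate granule cells, 2 of 3 of CA3, 2 of 2 of oligodendrocyte precursors, 2 of 4 of microglia, 1 of 5 of interneurons, 1 of 4 of astrocytes and 0 of 4 each of oligodendrocytes and endothelial cells were lower in CBP-ifKOs over both housings, and 0 were higher. C1ql2, a synaptic protein of granule cells, had a log2 fold change of -1.76 and Cpne4 of CA3 one of -0.50. Granule cell markers summed to 357.8 to 396.9 CPM in control SC mice, 334.5 to 364.5 in CBP-ifKO SC mice, 342.2 to 406.1 in control EE mice and 309.1 to 319.3 in CBP-ifKO EE mice. CA3 markers summed to 264.5 to 280.9, 212.0 to 232.5, 286.4 to 314.2 and 218.8 to 248.4 CPM in the same order. Of the choroid plexus markers, 1 of the 4 tested was lower and 0 higher. It was Ttr, the transthyretin gene, with a log2 fold change of -2.99 (adjusted p = 0.0283, edgeR), at 20.7 to 26.1 CPM in control SC mice and 6.02 to 7.73 in CBP-ifKO SC mice, and without EE control mouse 1 the value over both housings was -0.61 (SE 0.34, adjusted p = 0.278, edgeR). In EE it was at 1129, 19.6 and 8.81 CPM in control mice and at 32.3, 4.06 and 22.8 CPM in CBP-ifKOs, with overlap. Without EE control mouse 1, Slc1a2 of astrocytes and Csf1r of microglia were not past the threshold either (adjusted p = 0.0743 and 0.0864, edgeR), and the other markers counted here, those of CA1 and Ppp1r1b remained called. No marker of these lists was at 0 in all mice, and the part of these differences in the results for Adcy1 and Adcy5 was not tested.

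**Figure D2:**
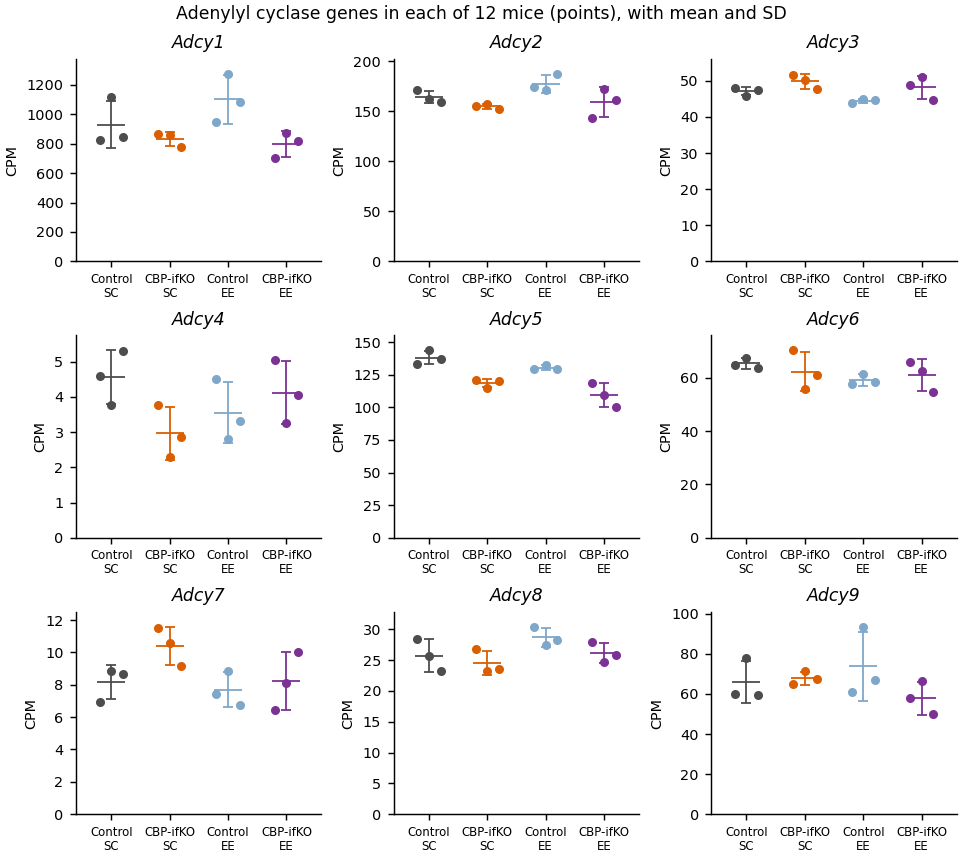
TMM-normalised CPM of each adenylyl cyclase gene in every mouse (points), with the mean and SD of each group of 3 mice; each panel has its own axis starting at 0. Adcy5 lies at 101 to 121 CPM in the 6 CBP-ifKOs and at 129 to 144 CPM in the 6 control mice, and in EE Adcy1 lies at 705 to 875 CPM in the CBP-ifKOs and at 948 CPM or more in the control mice.

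The other members stimulated by calcium and calmodulin showed no call. Adcy8 ranged from 23.2 to 28.4 CPM in control mice and from 23.2 to 26.8 CPM in CBP-ifKOs in SC, and its log2 fold change over both housings was -0.10 (SE 0.061, adjusted p = 0.287, edgeR). Adcy3 was at 48.0, 45.9 and 47.5 CPM in SC control mice and at 51.6, 50.3 and 47.7 CPM in SC CBP-ifKOs. In EE it was at 43.8, 44.8 and 44.5 CPM in control mice and at 48.9, 51.0 and 44.6 CPM in CBP-ifKOs, so that the group means of CBP-ifKOs were above those of controls in both housings. The log2 fold change of Adcy3 over both housings was 0.10 (SE 0.042), with an unadjusted p = 0.03 in the exact permutation test. Its adjusted p was 0.122 in edgeR. Of all 18251 genes, 5466 had an unadjusted p under 0.05 in edgeR in this comparison. Adcy3 shares 1380 exonic bases, 22.1% of its length, with Cenpo on the opposite strand, and strand use in counting is not given in the sources used here. Whether reads of the 2 genes in that stretch were told apart is therefore not known.

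Of the members stimulated by beta gamma subunits, Adcy2 leaned lower. It was at 171, 163 and 160 CPM in SC control mice and at 155, 157 and 152 CPM in SC CBP-ifKOs, without overlap. In EE it was at 174, 171 and 187 CPM in control mice and at 143, 173 and 161 CPM in CBP-ifKOs, where 1 CBP-ifKO reached the control range. Over both housings Adcy2 had a log2 fold change of -0.12 (SE 0.045). Its adjusted p was 0.0816 in edgeR, and its unadjusted p was 0.01 in the exact permutation test. With 1 mouse left out the log2 fold change lay between -0.15 and -0.087. The adjusted p of edgeR then lay between 0.03 and 0.189, past the threshold only without EE CBP-ifKO 2.

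Adcy4 had the widest range relative to its level, 2.32 times from the lowest to the highest mouse. Adcy9 followed with 1.88 times, Adcy1 with 1.81 times and Adcy7 with 1.78 times. Adcy4 was at 4.60, 3.78 and 5.30 CPM in SC control mice and at 3.77, 2.28 and 2.86 CPM in SC CBP-ifKOs, a log2 fold change of -0.61 (SE 0.20, adjusted p = 0.104, edgeR). Adcy7 was at 6.94, 8.88 and 8.64 CPM in SC control mice and at 11.5, 10.6 and 9.16 CPM in SC CBP-ifKOs, a log2 fold change of 0.35 (SE 0.13, adjusted p = 0.145, edgeR). Neither passed the threshold, and in EE the genotypes overlapped for both. Adcy4 rests on 73 to 146 counts in a control library and on 66 to 196 in a CBP-ifKO library, where all counts are even, and Adcy7 on 185 to 238 and 250 to 384. Together with Adcy2 and Adcy5, these made 4 of 9 members without overlap between genotypes in SC, where 25.9% of all genes had none. In EE, Adcy1 and Adcy5 made 2 of 9, against 25.3% of all genes.

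Adcy6, the other calcium-inhibited member, stayed within 54.5 and 70.2 CPM in all mice, with a log2 fold change of -0.012 (SE 0.058) over both housings. Adcy9 varied more, and its highest values were in control mice. It was at 60.1, 78.0 and 59.6 CPM in SC control mice, at 64.9, 71.4 and 67.6 CPM in SC CBP-ifKOs, at 60.8, 93.5 and 66.9 CPM in EE control mice and at 57.8, 66.2 and 49.8 CPM in EE CBP-ifKOs. Control mouse 2 of each housing was highest for both Adcy1 and Adcy9, and the log2 fold change of Adcy9 in EE was -0.34 (SE 0.14, adjusted p = 0.221, edgeR) with all mice, -0.13 without EE control mouse 2 and -0.46 without EE control mouse 1.

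Summed over the 9 members, the level was 167.6 ± 15.2 CPM per kilobase in SC control mice and 155.4 ± 5.20 in SC CBP-ifKOs (mean ± SD, n = 3 each). In EE it was 183.6 ± 16.1 in control mice and 150.0 ± 10.3 in CBP-ifKOs. Without Adcy1, the other 8 members summed to 93.5 ± 2.71 and 88.8 ± 1.65 in SC and to 95.8 ± 3.16 and 86.2 ± 4.57 CPM per kilobase in EE. The sums are dominated by Adcy1 and Adcy2 and are given as a description.

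**Figure D3:**
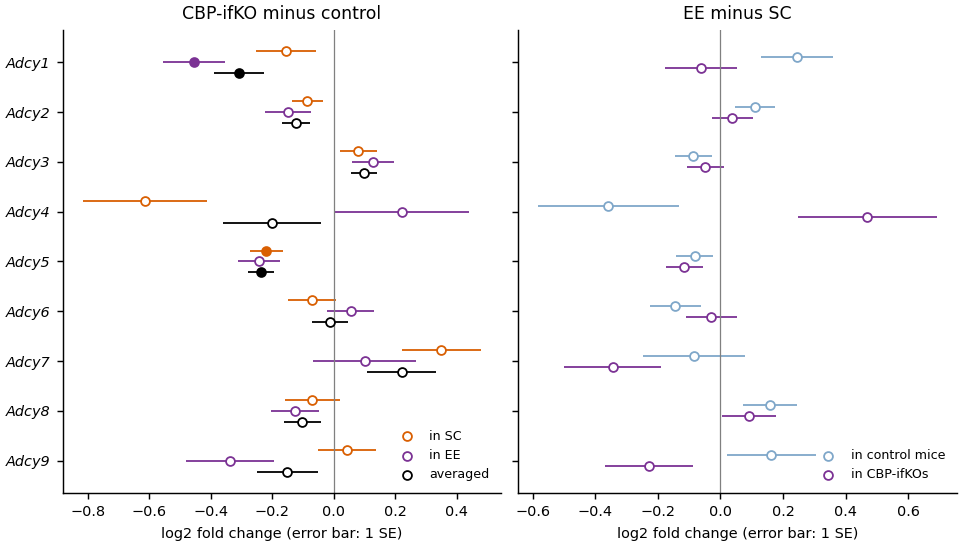
Log2 fold change of each adenylyl cyclase gene between genotypes (left) and between housings (right), with error bars of 1 SE; filled circles passed the threshold of 0.05 on the adjusted p. Filled circles stand only at Adcy1 (in EE and averaged) and Adcy5 (in SC and averaged) on the left, and nowhere on the right.

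The second question was whether EE changes these transcripts. No member passed the threshold for EE against SC in control mice, in CBP-ifKOs or over both genotypes with edgeR, and none did with DESeq2. Over all genes, edgeR called 0% of 18251 genes in control mice, 0.011% in CBP-ifKOs and 0.164% over both genotypes, and in control mice 768 genes had an unadjusted p under 0.05 while DESeq2 called 15. Among the 9 members, 1 had an unadjusted p under 0.05 in each comparison, namely Adcy1 in control mice, Adcy7 in CBP-ifKOs and Adcy5 over both genotypes, against 4.21%, 8.59% and 9.44% of all genes.

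In control mice Adcy1 was higher in EE by 0.24 on the log2 scale (SE 0.12; edgeR unadjusted p = 0.0497, adjusted p = 0.999), while the estimate in CBP-ifKOs was -0.063 (SE 0.12). The values of control mice in SC and EE overlapped, and with 1 mouse left out the difference ranged from 0.13 without EE control mouse 2 to 0.40 without SC control mouse 2. Adcy3, Adcy5 and Adcy6 were lower in every EE control mouse than in every SC control mouse, 3 of 9 members, with log2 fold changes of -0.087 (SE 0.060), -0.083 (SE 0.060) and -0.14 (SE 0.083). Groups were apart for 9.11% of all genes in this comparison. In CBP-ifKOs none of the 9 members had groups apart, against 15.9% of all genes. Adcy5 was lower in EE in the exact permutation test within genotype (unadjusted p = 0.015). Its log2 fold change was -0.099 (SE 0.042), with an adjusted p of 0.472 in edgeR.

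The interaction asks whether the genotypes respond differently to EE, and it was passed by 0 of 9 members and by 0% of all genes in edgeR. At an unadjusted p under 0.05 there were 574 genes, 3.15% of all, among them 1 member, and DESeq2 called 0 genes. That member was Adcy4, whose log2 fold change between genotypes was -0.61 in SC and 0.22 in EE, a difference of 0.83 (SE 0.32; edgeR unadjusted p = 0.0188, adjusted p = 0.9998). Adcy4 was at 4.52, 2.82 and 3.33 CPM in EE control mice and at 5.06, 3.26 and 4.05 CPM in EE CBP-ifKOs, so the genotypes overlapped there. For Adcy9 the difference was -0.39 (SE 0.20; edgeR unadjusted p = 0.0677, adjusted p = 0.9998).

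Adcy9 is the member closest to the targeted gene. It lies on chromosome 16 (GRCm38, 4287529 to 4420498, - strand), 73532 bases from the body of Crebbp (4081328 to 4213997). Within 500 kb of Crebbp 40 other genes are annotated, Adcy9 included, of which 22 were tested, and over both housings 3 were called higher in CBP-ifKOs and 0 lower in edgeR, with a median log2 fold change of 0.068. Over all genes 6.64% were called higher and 10.3% lower, and nothing particular to the locus is read from 3 of 22. The 3 were 1700037C18Rik (0.44, SE 0.10), Slx4 (0.22, SE 0.059) and Cluap1 (0.20, SE 0.056), and Adcy9 itself had -0.15 (SE 0.10, adjusted p = 0.343, edgeR). All 3 lie on the side of Crebbp away from Adcy9, and all 3 were also called without EE control mouse 1.

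**Figure D4:**
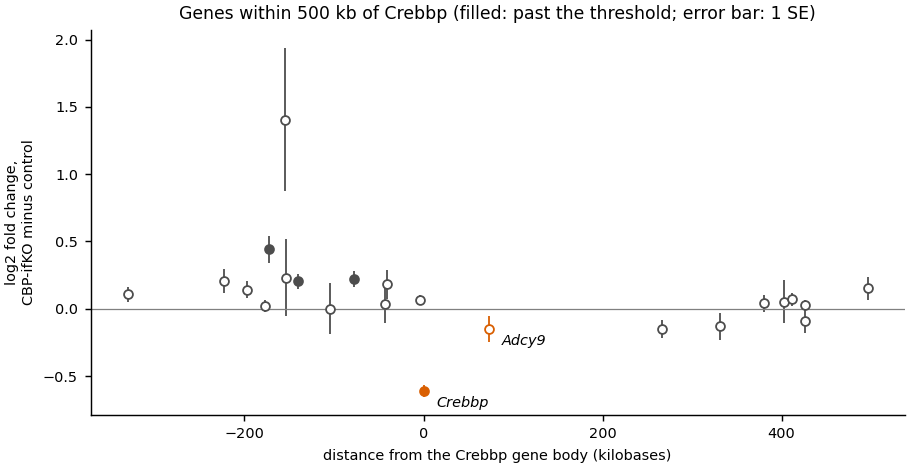
Log2 fold change between CBP-ifKO and control mice, averaged over housing, of tested genes within 500 kb of Crebbp against their distance from the Crebbp gene body in kilobases; error bars are 1 SE and filled circles passed the threshold. Crebbp is at -0.61 and Adcy9 at -0.15, and the 3 filled neighbours lie above 0.

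The other genes of the cAMP pathway were taken from 7 lists with 68 genes, all of which were tested. Over both housings 23 were lower and 2 higher in CBP-ifKOs, with a median log2 fold change of -0.16 against 0.0029 over all genes. Of all genes, 10.3% were called lower and 6.64% higher in this comparison. The lists were drawn up with earlier results of these data known, so their counts are a description. In SC 10 were lower and 1 higher, beside 4.02% and 1.51% of all genes, and in EE 10 were lower and 0 higher, beside 3.53% and 1.03%. The cell type markers given above differed between the same mice, and their part in these counts was not tested. Without EE control mouse 1 there were 21 calls over both housings, 20 of them among the 25, and 7 in EE, 6 of them among the 10. Of the genes named next as called between genotypes over both housings, all but Gnal and Prkar1b were then still called. Gnal and Prkar1b had an adjusted p of 0.108 and 0.0531 in edgeR.

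Calmodulin activates the products of Adcy1 and Adcy8, and small proteins such as neurogranin bind it when calcium is low. Nrgn, which encodes neurogranin, was at 764.6 CPM in SC control mice, 564.5 in SC CBP-ifKOs, 831.4 in EE control mice and 551.2 in EE CBP-ifKOs (means of 3 mice), a log2 fold change of -0.52 (SE 0.051, adjusted p = 7.52e-06, edgeR). Calm3, a calmodulin gene, had a log2 fold change of -0.32 (SE 0.044, adjusted p = 0.000143, edgeR), with 1432.5 and 1182.4 CPM in SC and 1544.4 and 1199.2 CPM in EE in control mice and CBP-ifKOs. Both genes were also called lower in SC and in EE taken alone.

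Of the 15 receptors that couple to inhibitory G proteins, 9 were lower and 0 higher over both housings, and all 15 estimates were below 0, with a median of -0.27. Adora1, the adenosine A1 receptor, had a log2 fold change of -0.38 (SE 0.039, adjusted p = 1.10e-05, edgeR), from 242.5 to 187.9 CPM in SC and from 251.2 to 192.7 CPM in EE. Sstr3, the somatostatin receptor of neuronal cilia, had -0.62 (SE 0.068) and Htr1a, a serotonin receptor, -0.56 (SE 0.075). All 3 were also lower in SC and in EE taken alone. Of the 12 receptors that couple to stimulatory G proteins, 4 were lower and 0 higher, with a median of -0.24. Vipr1, a receptor of vasoactive intestinal peptide, had -0.29 (SE 0.060), the serotonin receptors Htr6 and Htr4 had -0.49 (SE 0.12) and -0.43 (SE 0.11), and none of the 12 was called in SC or EE alone, although Htr4 was called in EE without EE control mouse 1 (-0.73, SE 0.13, adjusted p = 0.0063, edgeR).

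Among 7 G protein alpha subunits, Gnaz (-0.21, SE 0.042) and Gnao1 (-0.15, SE 0.039) of the inhibitory class were lower, and Gnal (0.14, SE 0.046), the stimulatory subunit of olfactory and striatal neurons, was higher. Of 16 phosphodiesterases, which break down cyclic nucleotides, 2 were lower, Pde1b (-0.29, SE 0.049) and Pde1a (-0.22, SE 0.071), both encoding enzymes that calmodulin stimulates. Among 12 effectors of cAMP, Hcn3 was higher (0.34, SE 0.054) and Prkar1b, a regulatory subunit of protein kinase A, was lower (-0.12, SE 0.033). The soluble cyclase Adcy10 had 0.449 to 0.681 CPM in the group means and passed no test. Of the 68 genes, 1 was called between housings, Adcyap1r1, the receptor of the peptide PACAP, which was lower in EE over both genotypes (-0.24, SE 0.042, adjusted p = 0.03, edgeR), as were 0.104% of all genes.

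**Figure D5:**
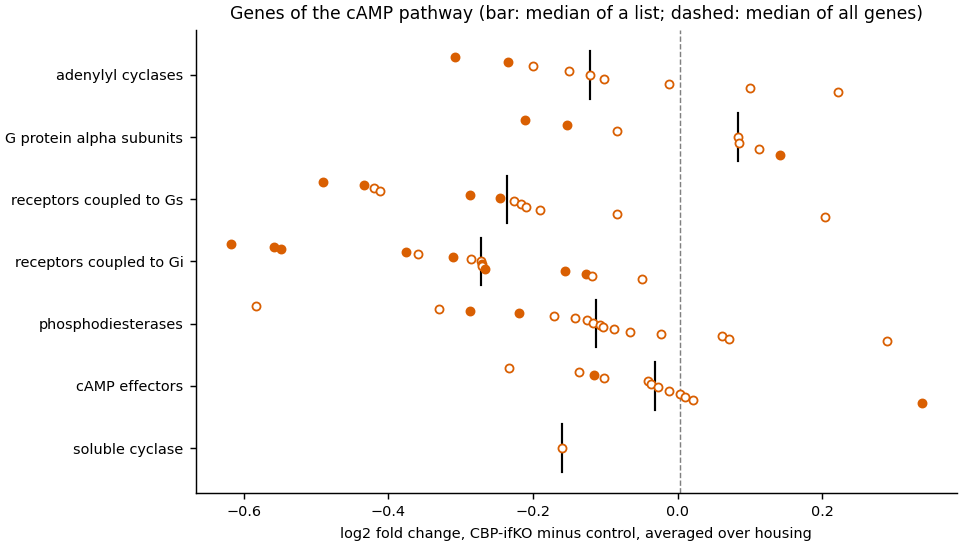
Log2 fold change between CBP-ifKO and control mice, averaged over housing, of the adenylyl cyclases and of 6 lists of cAMP pathway genes (circles; filled where the adjusted p was under 0.05), with the median of each list as a bar and that of all genes as a dashed line. All 15 receptors coupled to inhibitory G proteins lie below 0.

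Likeness of pattern was measured as the root mean square difference of centred log2 CPM over the 12 mice. Nearest to Adcy1 were Ptprj, which encodes a receptor tyrosine phosphatase (0.0825), Atf6, an endoplasmic reticulum stress factor (0.0884), and Grin2b, an NMDA receptor subunit (0.0895), against 0.231 for Adcy1 compared with a flat profile. Within the family Adcy9 was nearest to Adcy1, at 0.157. Nearest to Adcy5 were Cmtm4 (0.0479), Ssbp2 (0.0483) and Celf4, which encodes an RNA-binding protein (0.0511), against 0.140 for a flat profile, and within the family Adcy6 was nearest at 0.132. These distances describe shared variation among the same 12 libraries, depth and genotype included.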

How the data were processed

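RNA-seq (50 bp single-end reads) was made from the hippocampus of 12 mice. The authors trimmed reads (Trim Galore 0.6.4), aligned them with STAR 2.6.1 to GRCm38, kept mapping qualities above 10 and counted exons with Rsubread and Ensembl 99. The deposited table holds unnormalised counts and a length for each gene, with the 2 runs of a mouse merged by the authors before counting. Totals were 26874015 to 37448388 counts. Counts were fitted with edgeR 4.0.16 in R 4.3.3 (filterByExpr, TMM, quasi-likelihood F test, Benjamini-Hochberg 0.05, no fold threshold), on 6 mice within a housing and on 12 otherwise. The comparisons share mice. SE is the absolute log2 fold change over the square root of F. Levels use a prior count of 0 and likeness a prior count of 2. Exact permutation tests were two-sided, and their p was not adjusted for the number of genes. Alternatives were DESeq2 1.42.0, other normalisations and filters, a replicate block, halved or thinned counts and leaving out each mouse. The code was tested on simulated data.

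The members, the lists and the tests were chosen with earlier results of these data known. All 9 members and Crebbp were named. Of each pathway list up to 3 genes with the smallest p among those called were named, for likeness the 3 nearest genes, and other genes were named after their values were seen. Some genes of these lists are not reported here. Alternatives for the pathway lists, the neighbours of Crebbp and the cell type markers were added after seeing the data. Gene names, positions and overlaps are from GENCODE M21 (55230 of 55471 identifiers matched), and promoter windows from RefSeq. Of the 50-base words in the members' transcripts, none was shared with another gene for Adcy1, Adcy4, Adcy5, Adcy7 and Adcy9, and 18.6% were shared for Adcy3 (with Cenpo).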

Additional observations from a re-analysis of the deposited data

How the results depend on the processing

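Over both housings Adcy1 and Adcy5 were called under every alternative run, 2 to 3 members in all with 1 mouse left out, whereas the calls in SC and in EE alone ranged from 0 to 1 and from 0 to 1. For EE against SC and for the interaction, no member was called with any mouse left out. Without a filter on low counts 2 members were called in SC, 3 in EE, 4 over both housings, 1 for EE in control mice (Adcy1) and 1 for the interaction (Adcy9). Genotype in EE gave 2 members, Adcy1 and Adcy5, with DESeq2, with all 12 mice in the fit and with counts halved and thinned. The replicate block gave 3 in EE (Adcy1, Adcy5 and Adcy9) and changed no other count of members. The numbers were not taken to pair the mice, because the labels name no shared litter or day and 5 of 12 same-number pairs, not every pair, had a correlation of deviations over 0.1. The mean correlation was 0.077 for same and -0.039 for different numbers, and 7 of 12 mice correlated best with their own number, a hint of pairing from the data and not the design. Pathway genes called in EE were 10, or 16 with DESeq2 and 16 without the filter. With 1 mouse left out they were 5 to 16 in SC, 3 to 12 in EE and 20 to 24 over both housings. In SC they were 7 without control mouse 3, 5 without CBP-ifKO 1 and 6 without CBP-ifKO 2. In EE they were 4 without control mouse 3, 5 without CBP-ifKO 1 or 2 and 3 without CBP-ifKO 3. Over all genes, calls between genotypes in SC were 968, or 1512 without the filter, and in EE 805, or 1677 without it, 1296 with DESeq2 and 1293 with all 12 mice. With 1 mouse left out they were 399 to 1908 in SC and 285 to 1016 in EE. Between housings DESeq2 called 15 genes in control mice, 54 in CBP-ifKOs and 158 over both genotypes where edgeR called 0, 2 and 30, and the fit without the filter called 145, 247 and 334, and 110 for the interaction. The block gave 17 in CBP-ifKOs and 48 over both genotypes. The causes were not tested. Halving and thinning together turned 3 estimates close to 0, which became 0.0066 for Adcy6 between genotypes over both housings, 0.047 for Adcy8 in the interaction and -0.039 for Adcy4 between housings over both genotypes. Leaving out 1 mouse turned 27 of 648 estimates of members. They ranged for genotype in SC from -0.16 to 0.0046 (Adcy6), -0.14 to 0.013 (Adcy8) and -0.018 to 0.18 (Adcy9), in EE from -0.0080 to 0.13 (Adcy6) and -0.069 to 0.25 (Adcy7), and over both housings from -0.059 to 0.026 (Adcy6). For EE against SC they ranged from -0.044 to 0.30 in control mice (Adcy9), in CBP-ifKOs from -0.13 to 0.020 (Adcy1), -0.024 to 0.11 (Adcy2), -0.091 to 0.0036 (Adcy3) and -0.10 to 0.067 (Adcy6), and over both genotypes from -0.049 to 0.16 (Adcy4) and -0.14 to 0.037 (Adcy9). For the interaction they ranged from -0.0044 to 0.090 (Adcy3), -0.093 to 0.026 (Adcy5) and -0.14 to 0.0064 (Adcy8). None of these had passed the threshold. Leaving out 1 mouse moved 48 of the 59 estimates of members that were not past the threshold by over 1.5 times and 0 of the 4 that were. Such ratios are large for estimates close to 0, and the 4 belong to Adcy1 and Adcy5 only. These counts therefore do not compare the stability of the 2 sets. The order of the members by level per length was the same with library totals and with the longest transcript, where Adcy3 had 8.43, Adcy6 10.3 and Adcy8 3.76 CPM per kilobase. The low counts of Adcy4 and Adcy7 limit their precision.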
